A study of Mus musculus with 4 samples.

Results

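Motile cilia genes were followed in single nuclei of mouse brain, comparing nuclei that carry ependymal transcripts with all other nuclei. The members are all gene symbols of 5 families and 1 single gene: Dnah with a number, Cfap, Spag, Rsph, Tekt and Hydin. They came to 61 of the 31053 genes in the files: 12 Dnah, 26 Cfap, 9 Spag, 8 Rsph and 5 Tekt genes and Hydin. Dnai symbols were also sought and 0 were found. The files hold dynein intermediate chains under other names, among them Dnaic1, Dnaic2 and Wdr63, which fall outside the choice. A nucleus was gated as ependymal when Foxj1, Tmem212 and Ccdc153 together had at least 1 UMI (unique molecular identifier, 1 counted transcript molecule). UMIs of these 3 genes are called gate UMIs below.

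Male C57BL/6J mice received an adeno-associated virus of serotype 9 into the cisterna magna (a fluid pocket under the cerebellum) at 4 weeks of age, and their brains were taken at 8 weeks of age. AAV-VEGF-C carried full-length mouse VEGF-C, a growth factor for lymphatic vessels, and AAV-CTRL carried a soluble stretch of VEGFR3 fused to an immunoglobulin tail that does not bind VEGF-C. All mice thus carried a virus that drives a secreted protein, and no uninjected mice were sampled. The 4 groups are the regions labelled cortex and striatum under each virus, with 1 library per group made from 5 pooled brains, so both regions of a virus group come from the same mice. Values are given with the 2 libraries labelled cortex before the 2 labelled striatum, AAV-CTRL coming first within each label.

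Motile cilia are hair-like projections whose core, the axoneme, is a ring of microtubule doublets around a central pair. Outer and inner dynein arms slide neighbouring doublets past each other, radial spokes and the central apparatus pace that sliding, and proteins inside the microtubules stiffen them. In the brain, ependymal cells line the ventricles and carry tufts of such cilia that move cerebrospinal fluid. Foxj1 is the transcription factor that drives the genes of motile cilia, and factors of the RFX family act with it.

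After removal of called doublets, barcodes that mix nuclei of several cells, 16362, 19096, 21757 and 16670 nuclei remained, with 58972906, 71238968, 68437237 and 63384856 UMIs. Levels are UMIs per 1000000 UMIs of the same set of nuclei (CPM), and are not scaled to gene length. With 1 library per group no test could be run, so that each ratio describes its pair of libraries and not the treatment or the region. Intervals in parentheses are 95% counting intervals of the UMIs or nuclei; they reflect counting error alone and say nothing of how nuclei, mice or preparations vary. The region labels went against striatal genes. Drd1, a dopamine receptor of striatal neurons, gave 26.8, 34.0, 11.3 and 9.96 CPM, and Adora2a, an adenosine receptor of the same tissue, gave 26.5, 31.3, 8.36 and 8.65 CPM, both lower in the libraries labelled striatum. Slc17a7, the vesicular transporter of cortical excitatory neurons, was also lower there, at 419, 459, 58.7 and 42.1 CPM. Regions are therefore named by label alone. Vegfc RNA summed over all nuclei did not separate the virus labels, at 12.26, 11.96, 13.05 and 11.96 CPM. The paper reports higher Vegfc in smooth muscle cells under AAV-VEGF-C, and more VEGF-C protein in brain extracts by ELISA. Vegfc was not compared by cell type here. Pairs of libraries shared 76 to 118 cell barcodes.

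Promoter sequences were read first, because RFX and Fox factors are the known drivers of these genes and the members move together in the counts below. A promoter window of 250 bases before to 50 bases after the start site (RefSeq, GRCm38.p6) was given for 50 of the 61 members. A strict spelling of the X-box of RFX factors, searched on both strands as GTTNCC and GGNAAC with 2 free bases between them, was in 0 of these 50 members and in 0.529% of all 27025 genes with a window. Looser spellings, with other bases or spacings, were not searched, so that the 0 does not show these promoters to lack an X-box. The short RFX motif GTTGCC, a part of the X-box, was in 16 members (32%) against 14.1% of all genes. The Fox motif GTAAACA was in 4 members (8%) against 4.05%, and 19 members (38%) against 17.6% of all genes held at least 1 of the short RFX and Fox motifs. A match is a description of letters, not a binding site. The stretches of 30 bases below show the matches in members with a large difference between gated and other nuclei, with the motif in capitals, each on the strand on which the motif reads forward:
Hydin, chr8:110266952-110266981, minus strand: ttgttaccatctGTTGCCacagcaaccgca
Spag16, chr1:69826855-69826884, plus strand: actaggcaacgcGTTGCCgtagtaactgcg
Dnah10, chr5:124725053-124725082, plus strand: cgcgctggcgccGTTGCCcaggtccccgtt
Cfap44, chr16:44394768-44394797, minus strand: ccgtttactgcgGTTGCCatagcaacgtcc
Cfap58, chr19:47937641-47937670, plus strand: gggggcgtggcgGTTGCCaggcgaccgaag
Tekt1, chr11:72361880-72361909, minus strand: tgcgtccgtccgGTTGCCatagagaccgca
Cfap43, chr19:47837398-47837427, minus strand: aggatacaggtGTAAACAgtggcatcttcg

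The motif began at −13 relative to the start site in Hydin, at −103 in Spag16, at −20 in Dnah10, at −19 in Cfap44, at −59 in Cfap58, at −15 in Tekt1 and at −55 in Cfap43. In Hydin and Cfap44 the letters GCAAC follow the capitals within a few bases, and the same holds for Tekt2 and Rsph3b. Neither of the latter reached 2-fold in gated nuclei of all 4 libraries. In strongly gated nuclei Rsph3b passed 2-fold in 4 libraries, at 5.43 to 8.38 times, and Tekt2 in 3, from 6 UMIs. Members under 2-fold between gated and other nuclei held the same motifs, and 3 of them are shown. In strongly gated nuclei Cfap20 passed 2-fold in all 4 libraries, Dnah17 had 0 UMIs and Spag6 had 2, its low value being uncertain:
Cfap20, chr8:95435033-95435062, minus strand: acgcaggcactGTAAACAcgtgaggtaaac
Dnah17, chr11:118129403-118129432, plus strand: agggtcatcagGTAAACAgggtacccctgg
Spag6, chr2:18698973-18699002, plus strand: cgattccgactgGTTGCCcaggagtgtggg

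The gated nuclei were few and mostly did not look ependymal by other markers. They numbered 566, 377, 940 and 965, or 3.46% (3.18 to 3.75), 1.97% (1.78 to 2.18), 4.32% (4.05 to 4.60) and 5.79% (5.44 to 6.15) of nuclei. Of these, 85.2%, 86.2%, 84.1% and 89.8% carried a single gate UMI. Among oligodendrocyte-like nuclei, which lack motile cilia, 3.606%, 1.985%, 3.805% and 5.819% met the same rule. Those that did not meet it had median depths of 1668, 1665, 1742.5 and 2088 UMIs, against 3093.5, 3041, 2385.5 and 2862 in gated nuclei. In microglia-like nuclei the shares were 2.72%, 1.82%, 3.02% and 4.62%, and in endothelial-like nuclei 2.27%, 1.43%, 3.14% and 5.11%. Astrocyte-like nuclei gave 5.42%, 2.08%, 4.70% and 5.75%. Choroid plexus-like nuclei gave more than all of these in each library, 20%, 4.55%, 12.8% and 7.14%, from 10, 3, 15 and 5 nuclei. The share over all nuclei was thus close to that of oligodendrocyte-like nuclei in 3 libraries and above it in striatum AAV-CTRL, and above those of microglia-like and endothelial-like nuclei in each library. Where the single gate UMIs came from was not tested, and nuclei with 1 gate UMI are not read as ependymal.

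Nuclei with at least 3 gate UMIs, called strongly gated nuclei below, numbered 70, 44, 106 and 51, or 0.428% (0.334 to 0.540), 0.230% (0.167 to 0.309), 0.487% (0.399 to 0.589) and 0.306% (0.228 to 0.402). This limit was chosen after the data were seen. A list of 15 ependymal markers that are neither gate genes nor members summed to 5171, 5107, 4835 and 5001 CPM in strongly gated nuclei, with 0 of the 15 genes undetected in each library. Some of the 15, such as Ak7 and Dynlrb2, are themselves genes of the cilia machinery, so that the list is not independent of the motile cilia genes. The same list gave 104, 109, 145 and 145 CPM in nuclei with 1 gate UMI and 81.7, 74.6, 111 and 109.6 CPM in the nuclei without gate UMIs, called other nuclei below. Rarres2, a secreted chemoattractant known from ependyma, gave 965, 1057, 991 and 1049.8 CPM in strongly gated nuclei. Only 0, 0, 3 and 2 oligodendrocyte-like nuclei reached 3 gate UMIs, against 25, 6, 26 and 9 astrocyte-like nuclei. The astrocyte-like class was named from UMIs of Gja1, Aqp4 and Slc7a10 alone, and whether these nuclei were astrocytes was not tested.

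Markers of the choroid plexus, a neighbouring epithelium of the ventricles that carries its own cilia, also differed with the gate. The list of 9 genes summed to 3150, 5695, 4435 and 4380 CPM in nuclei with 1 gate UMI against 925, 1004, 2156 and 1865 CPM in other nuclei. Strongly gated nuclei gave 742, 14660, 905 and 677 CPM, with 1, 0, 1 and 1 of the 9 genes at 0 UMIs. The high value belongs to the library labelled cortex AAV-VEGF-C, in which Ttr, the secreted carrier of thyroid hormone made by choroid plexus, gave 12951 CPM against 249, 76.5 and 82.8 CPM in the other libraries. Gated nuclei with at least 2 UMIs of choroid plexus markers were then left out. This took 36, 25, 49 and 29 gated nuclei, among them 23 of 70, 16 of 44, 20 of 106 and 11 of 51 strongly gated nuclei. Other nuclei were not screened, though 133, 159, 300 and 238 of them met the same limit. The log2 ratio of the summed motile cilia genes between gated and other nuclei was 1.75, 1.91, 1.87 and 1.42. With the screened nuclei kept it was 2.74, 2.85, 2.42 and 2.01. Of this screen's UMIs in strongly gated nuclei, Folr1 made up 75.5%, 39.7%, 41.9% and 36.25%. Otx2 made up 39.5% and 45% under the striatum label. Whether the nuclei left out were choroid plexus cells was not tested. A second screen left out gated nuclei with at least 2 UMIs of genes known from nasal tissue, other nuclei again being unscreened. It took 14, 15, 25 and 7 strongly gated nuclei, and the ratio was 2.10, 1.87, 1.68 and 1.32. In strongly gated nuclei 67.6%, 60.3%, 60.5% and 73.6% of that screen's UMIs were of a single gene, Stoml3, while the olfactory genes Omp, Cnga2, Cnga4 and Rtp1 together had 0, 0, 2 and 1 UMIs. Whether the nuclei it left out were nasal cells was not tested.

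The summed level of the 61 motile cilia genes was higher in gated than in other nuclei of every library, and nearly all of that difference sat in the strongly gated nuclei. Gated nuclei gave 4905 (4818 to 4993), 5159 (5051 to 5268), 4580 (4509 to 4652) and 3375 (3321 to 3429) CPM. Other nuclei gave 733, 715, 858 and 836 CPM, so that the log2 ratios were 2.74 (2.71 to 2.77), 2.85 (2.82 to 2.88), 2.42 (2.39 to 2.44) and 2.01 (1.99 to 2.04). Split by gate UMIs, nuclei with a single gate UMI gave 829, 855, 1023 and 946 CPM. That was somewhat above other nuclei in every library, with intervals of 789 to 871, 805 to 907, 986 to 1061 and 915 to 977. At least 10 of the 61 genes had a UMI in 11, 8, 22 and 18 of these nuclei. Those are 2.28%, 2.46%, 2.78% and 2.08%, against 0.462%, 0.449%, 0.682% and 0.981% of other nuclei. Nuclei with 2 gate UMIs gave 4094, 1782, 4498 and 2495 CPM, from 14, 8, 43 and 47 nuclei. Strongly gated nuclei gave 20403, 19362, 22814 and 22543 CPM, a log2 ratio of 4.80, 4.76, 4.73 and 4.75, and held 85.0%, 87.0%, 79.0% and 73.3% of all member UMIs of the gated nuclei.

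**Figure D1:**
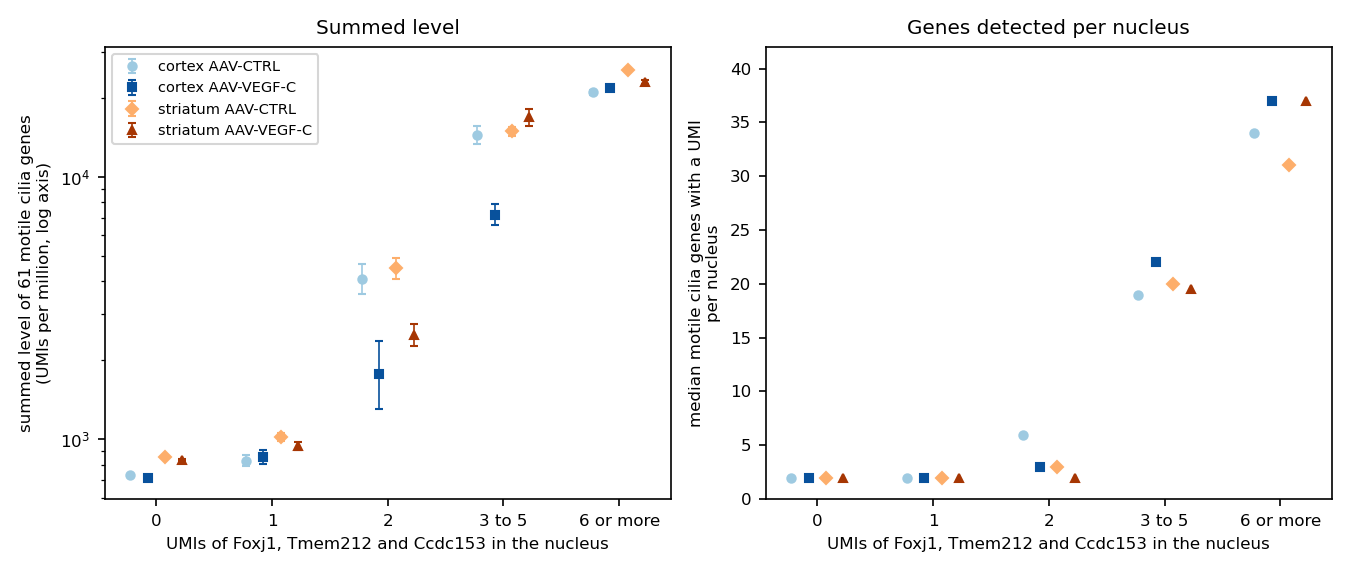
Summed level of the 61 motile cilia genes (left, CPM on a log axis, bars are 95% counting intervals) and median number of these genes with a UMI per nucleus (right), by the number of gate UMIs in the nucleus, 1 symbol per library. The level stays near 829 to 1023 CPM at 1 gate UMI and lies between 21007 and 25632 CPM at 6 or more.

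The same step was seen nucleus by nucleus. The median number of motile cilia genes with a UMI was 28.5, 32, 25 and 32 in strongly gated nuclei and 2 in gated and other nuclei of every library. Strongly gated nuclei were deeper, with median depths of 4429, 5990, 2783 and 4171 UMIs against 2498.5, 2673, 2149 and 2553 in other nuclei. With all nuclei thinned to 1000 UMIs, medians fell to 13, 13, 14 and 13 genes against 1, 0, 1 and 1, with 0, 1, 2 and 0 strongly gated and 620, 685, 1423 and 406 other nuclei too shallow to enter. Levels within strongly gated nuclei ranged from 3259 to 31774, from 1927 to 29793, from 717 to 36147 and from 4533 to 30906 CPM per nucleus, with medians of 19732, 19621, 21693 and 21926 CPM. Outside the gate, 73, 84, 142 and 154 other nuclei had at least 10 of the 61 genes, at median depths of 8270, 9449, 5902 and 9374.5 UMIs, and these summed to 130, 168, 275 and 222 CPM of the ependymal list.

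Gene by gene, 45, 46, 44 and 43 of the 61 members were at least 2-fold higher in gated than in other nuclei. All 61 reached the minimum of 20 UMIs in both sets together. Over all genes with that minimum, 10.1%, 11.1%, 6.91% and 6.08% were 2-fold higher. The median log2 ratio of the members was 3.61, 3.69, 3.04 and 2.61 against 0.02, −0.01, −0.03 and −0.01 over all genes. In gated nuclei 1, 2, 0 and 2 members were 2-fold lower, where 6.03%, 9.97%, 6.29% and 4.35% of all genes were. In all 4 libraries at once, 43 members and 3.49% of all genes passed 2-fold. In strongly gated nuclei 49, 49, 50 and 51 members passed, where 20.9%, 20.7%, 17.3% and 17.8% of all genes did, and 47 members passed in all 4 libraries against 10% of all genes.

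**Figure D2:**
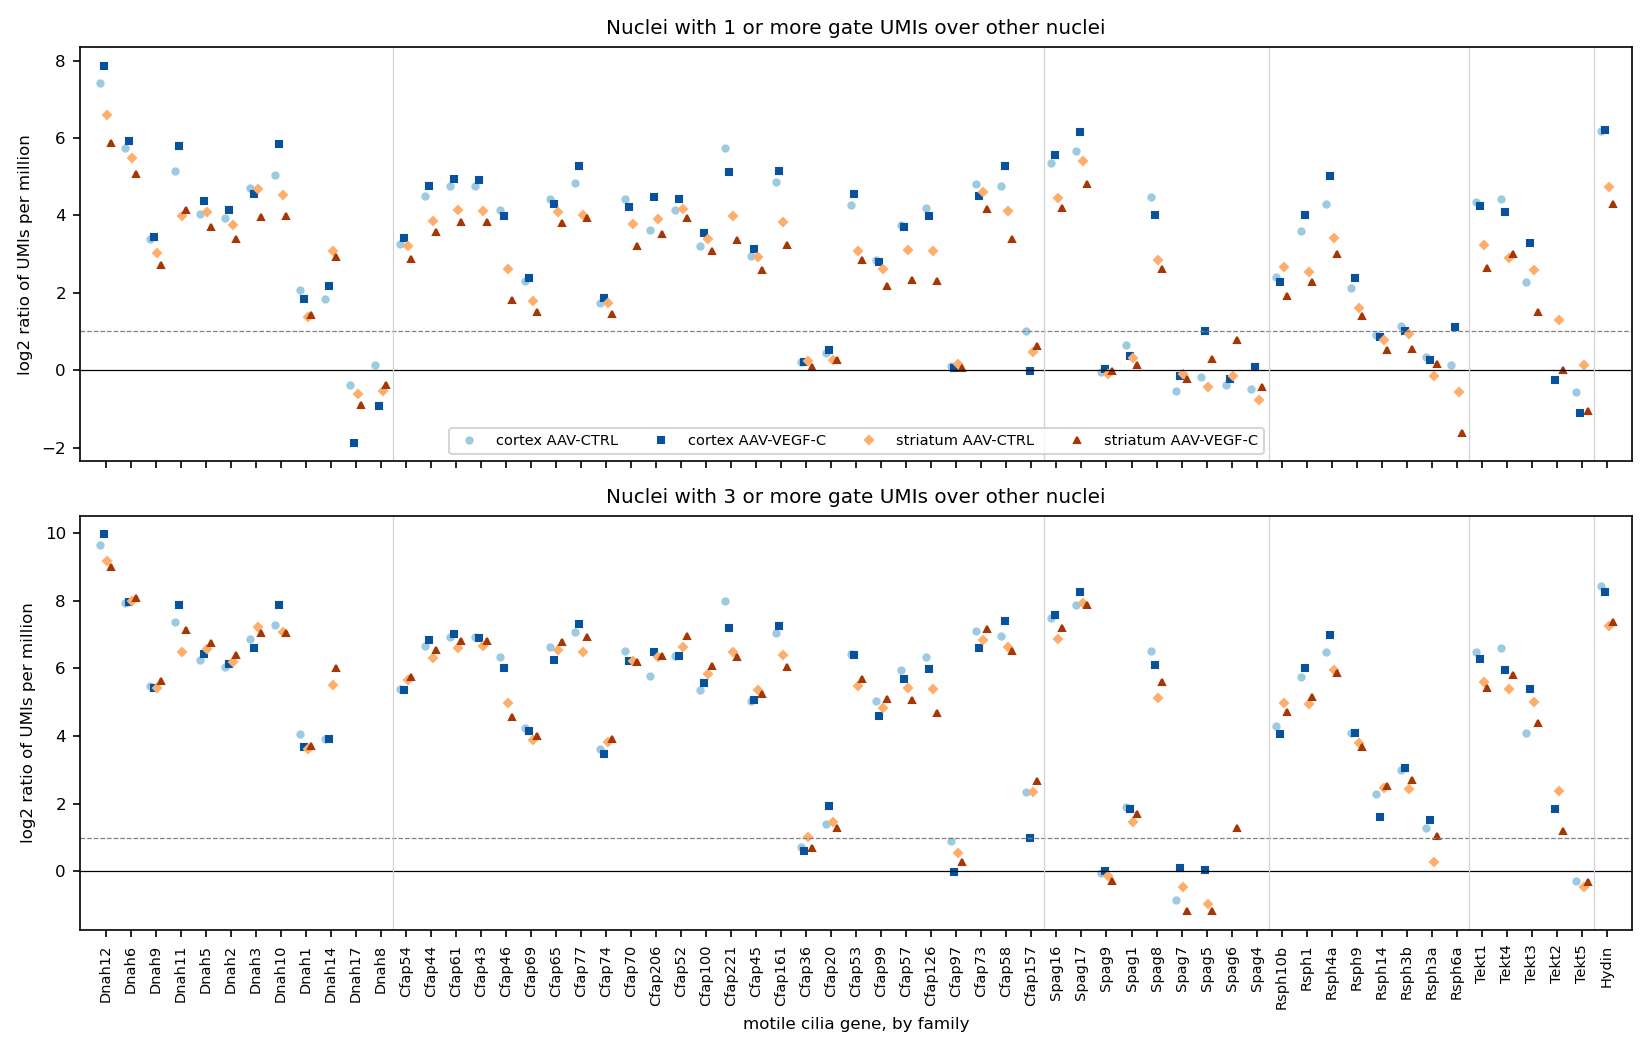
Log2 ratio of each of the 61 motile cilia genes, gated over other nuclei (upper) and strongly gated over other nuclei (lower), 1 symbol per library, genes grouped by family along the horizontal axis. The dashed line marks 2-fold, which 43 members pass in all 4 libraries in the upper panel and 47 in the lower, and members with 0 UMIs in a set have no symbol there.

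The axonemal dynein heavy chains, the motors of the arms, differed in every library alike: 10 of 12 Dnah genes were at least 2-fold higher in all 4 libraries, and their sum gave log2 ratios of 4.40, 4.53, 4.15 and 3.72. Dnah12, an inner arm chain (chr14:26693274-26891703, plus strand), gave 464, 426, 450 and 271 CPM in gated nuclei against 2.71, 1.83, 4.63 and 4.63 CPM in other nuclei, or 171, 233, 97.1 and 58.5 times the level. Strongly gated nuclei had 2179, 1814, 2649 and 2354 CPM, and these 271 nuclei held 80.5% of all its UMIs in the 73885 nuclei. A UMI of Dnah12 was found in 98.6%, 95.5%, 95.3% and 92.2% of strongly gated nuclei against 0.831%, 0.203%, 0.611% and 1.22% of oligodendrocyte-like nuclei, whose median depth was lower.

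Dnah6, also of the inner arm, gave 235, 246, 216 and 150 CPM in gated nuclei against 4.37, 4.05, 4.85 and 4.46 CPM in other nuclei. Dnah11, an outer arm chain, gave 212, 243, 194 and 126 CPM against 5.93, 4.36, 12.2 and 7.15 CPM. Dnah9, the outer arm chain of the distal axoneme, gave 254, 270, 196 and 145 CPM against 24.25, 25.01, 23.84 and 22.09 CPM. Its ratio was the smallest of these 4 genes, 6.56 to 10.8 times, and strongly gated nuclei held 24.6% of its UMIs. Dnah5, the outer arm chain often altered in primary ciliary dyskinesia, gave 12.9 to 20.6 times, and Dnah10, Dnah2 and Dnah3 of the inner arm gave 15.8 to 57.3, 10.5 to 17.6 and 15.6 to 26.0 times. Dnah1 and Dnah14 had the smallest ratios above 2-fold in the family, 2.60 to 4.24 and 3.59 to 8.42 times.

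The remaining Dnah genes, both known from sperm, did not share this pattern. Dnah17 gave 3.64, 1.18, 2.89 and 2.73 CPM in gated nuclei against 4.78, 4.31, 4.46 and 5.12 CPM in other nuclei. Dnah8 gave 1.21, 0.590, 1.73 and 1.59 CPM against 1.10, 1.12, 2.52 and 2.07 CPM. Strongly gated nuclei held 0 UMIs of each. In a single library a count of 0 allows up to 3 UMIs, or 5.93, 7.64, 5.47 and 6.21 CPM. This lies above the level of both genes in other nuclei, so that no library alone could show a lower level. The libraries were not pooled for this limit.

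Of the 26 Cfap genes (cilia and flagella associated proteins), 23, 22, 22 and 22 passed 2-fold, and the sum of the family gave log2 ratios of 2.67, 2.78, 2.39 and 1.98. Cfap54, a protein of the central apparatus, gave 294, 323, 256 and 193 CPM in gated against 30.6, 30.4, 27.9 and 26.4 CPM in other nuclei. Cfap44 and Cfap43 tether an inner arm dynein to its doublet. Cfap44 gave 172, 215, 174 and 108 CPM against 7.61, 7.87, 11.97 and 9.14 CPM, and Cfap43 gave 149, 154, 138 and 106 CPM against 5.54, 5.12, 7.99 and 7.44 CPM. Cfap61, of the radial spoke base, gave 150, 172, 156 and 115 CPM against 5.59, 5.61, 8.90 and 8.07 CPM. The gated nuclei of striatum AAV-VEGF-C were the lowest of the 4 libraries for each of these genes, and they also held the smallest share of strongly gated nuclei, 5.28% against 12.4%, 11.7% and 11.3%.

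Other Cfap genes differed between libraries in their level outside the gate. Cfap221, of the central apparatus, had 0.743 and 0.978 CPM in other nuclei under the cortex label and 2.94 and 3.00 CPM under the striatum label, and its ratio fell from 53.8 and 35.0 to 15.9 and 10.3 times. Cfap46, likewise of the central apparatus, had 6.81, 7.29, 21.3 and 22.2 CPM in other nuclei and ratios of 17.7, 15.9, 6.17 and 3.54 times. Cfap69 and Cfap74 had 24.2 to 38.0 and 24.97 to 26.06 CPM in other nuclei, and ratios of 2.85 to 5.21 and 2.71 to 3.65 times. Cfap45 and Cfap52, which sit inside the doublet microtubules, gave 6.02 to 8.71 and 15.2 to 21.4 times. The other 12 Cfap genes past 2-fold in all 4 libraries (Cfap53, Cfap57, Cfap58, Cfap65, Cfap70, Cfap73, Cfap77, Cfap99, Cfap100, Cfap126, Cfap161 and Cfap206) ranged from 4.49 times (Cfap99, striatum AAV-VEGF-C) to 38.9 times (Cfap77, cortex AAV-VEGF-C).

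A group of Cfap genes stayed under 2-fold in all 4 libraries. Cfap36, a binding partner of the small GTPase Arl3, gave 74.8, 73.8, 88.7 and 76.4 CPM in gated against 65.2, 64.1, 75.9 and 72.3 CPM in other nuclei. Cfap97 gave 36.8, 40.7, 37.3 and 40.7 CPM against 33.9, 39.0, 33.4 and 39.1 CPM, and in strongly gated nuclei its log2 ratio was 0.90, −0.03, 0.56 and 0.28. Cfap20, which joins the tubules of a doublet, gave 55.0, 52.0, 52.6 and 55.9 CPM against 40.7, 36.2, 44.0 and 46.9 CPM, and it passed 2-fold in all 4 libraries in strongly gated nuclei, at 107, 138, 122 and 114 CPM. Cfap157, known from sperm tails, passed 2-fold in 1 library, with 18.2, 8.86, 9.54 and 12.05 CPM in gated nuclei against 9.01, 8.93, 6.85 and 7.83 CPM. In strongly gated nuclei it passed 2-fold in 3 libraries, and its ratio ranged from 1.997 to 6.34 times.

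The Spag genes (sperm associated antigens) share a name and not a structure, and they split sharply. Spag16 and Spag17 build the central apparatus with Hydin. Spag16 (chr1:69826970-70725132, plus strand) gave 423, 437, 357 and 257 CPM in gated against 10.4, 9.25, 16.3 and 14.0 CPM in other nuclei. Spag17 gave 172, 184, 137 and 99.1 CPM against 3.42, 2.57, 3.25 and 3.54 CPM, or 50.3, 71.6, 42.2 and 28.0 times. Spag8, a protein inside microtubules, gave 14.6, 13.6, 7.51 and 7.05 CPM against 0.655, 0.848, 1.05 and 1.15 CPM. Hydin itself (chr8:110266977-110610253, plus strand) gave 201, 210, 170 and 125 CPM against 2.76, 2.85, 6.39 and 6.37 CPM, or 72.8, 73.8, 26.7 and 19.6 times.

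Spag9 stood at the other end. It encodes JIP4, a scaffold for kinase signalling and vesicle transport, and gave 216, 214, 242 and 250.9 CPM in gated against 222, 211, 259 and 254 CPM in other nuclei. Strongly gated nuclei gave 214, 211, 235 and 207 CPM, so that its log2 ratio was −0.06, 0.00, −0.14 and −0.29. Spag7 gave 14.6, 21.3, 25.7 and 23.9 CPM against 21.1, 23.7, 27.5 and 27.8 CPM, and Spag4, of the nuclear envelope, gave 1.62, 2.36, 2.60 and 3.41 CPM against 2.27, 2.24, 4.46 and 4.65 CPM. Spag1, which helps to assemble dynein arms before they enter the cilium, gave 24.7, 20.1, 24.3 and 21.1 CPM against 15.8, 15.5, 19.7 and 19.2 CPM. Its level in strongly gated nuclei was 59.3, 56.0, 54.7 and 62.1 CPM, past 2-fold in all 4 libraries. Spag5, a spindle protein, passed 2-fold in gated nuclei of cortex AAV-VEGF-C alone, at 10.0 against 4.96 CPM.

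Spag6 of the central apparatus gave 3.23, 3.54, 1.16 and 2.95 CPM in gated against 4.21, 4.14, 1.29 and 1.71 CPM in other nuclei, with 0, 0, 0 and 2 UMIs in strongly gated nuclei. Its near-identical copy Spag6l falls outside the choice of symbols and gave 102, 119, 90.2 and 65.7 CPM against 14.0, 14.9, 14.0 and 13.8 CPM. Reads of the copies can be split or lost in counting, so the low value of Spag6 is uncertain.

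Of the 8 Rsph genes, which build the radial spokes, 4 passed 2-fold in all 4 libraries. Rsph10b of the spoke head gave 94.6, 88.0, 85.2 and 53.9 CPM in gated against 17.77, 17.97, 13.39 and 14.19 CPM in other nuclei. Rsph1, another spoke head protein, gave 50.9, 62.6, 32.9 and 29.1 CPM against 4.18, 3.88, 5.69 and 6.02 CPM. Rsph4a of the spoke head gave 34.4, 51.4, 26.6 and 19.3 CPM against 1.75, 1.60, 2.48 and 2.41 CPM, and Rsph9 of the same structure gave 37.6, 41.9, 31.2 and 28.4 CPM against 8.65, 8.08, 10.2 and 10.7 CPM. The higher values of Rsph1, Rsph4a and Rsph9 in gated nuclei lay in the libraries labelled cortex.

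The other Rsph genes stayed under 2-fold in at least 1 library. Rsph14 was higher in gated nuclei of every library without reaching 2-fold. It gave 31.1, 31.9, 22.8 and 23.0 CPM against 16.7, 17.5, 13.4 and 15.97 CPM and passed 2-fold in all 4 libraries in strongly gated nuclei, at 81.1, 53.5, 74.7 and 91.1 CPM. Rsph3a and Rsph3b, near-identical copies of a spoke stalk gene, gave 0.897 to 1.26 and 1.46 to 2.21 times, Rsph3b passing 2-fold in both libraries labelled cortex, and the division of reads between them is uncertain. In strongly gated nuclei Rsph3a gave 1.22 to 2.86 times and Rsph3b 5.43 to 8.38 times. Rsph6a, the sperm counterpart of Rsph4a, had 5 UMIs in all gated nuclei and 0 in strongly gated nuclei.

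The tektins form filaments inside the doublet microtubules. Tekt1 (chr11:72344722-72362442, minus strand) gave 29.9, 24.8, 23.1 and 15.2 CPM in gated against 1.47, 1.31, 2.45 and 2.46 CPM in other nuclei. Tekt4 gave 7.43 to 21.4 times and Tekt3 2.85 to 9.78 times, from 62 and 41 UMIs in gated nuclei. Tekt5 gave 1.62, 1.18, 5.49 and 2.5002 CPM against 2.39, 2.53, 4.99 and 5.19 CPM, and Tekt2 had 17 UMIs in all gated nuclei. Of the 5 tektins, 3 thus differed in all 4 libraries, and neither Tekt2 nor Tekt5 had more than 6 UMIs in strongly gated nuclei.

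Genes of the same machinery outside the symbol choice were read from 4 lists. Of 12 dynein assembly and docking genes with enough UMIs, 10, 12, 10 and 9 were 2-fold higher in gated nuclei and 12 in strongly gated nuclei of every library. Dnaaf3, an assembly factor, gave 44.1, 30.1, 35.3 and 23.9 CPM in gated against 0.850, 0.820, 1.19 and 1.10 CPM in other nuclei. Armc4, of the docking complex, gave 98.7, 119, 95.4 and 60.7 CPM against 5.81, 5.92, 6.36 and 5.39 CPM. Of 10 other dynein chains, 10, 10, 10 and 9 passed in gated and 10 in strongly gated nuclei of every library. Wdr63, an intermediate chain of an inner arm, gave 91.8, 97.4, 89.0 and 61.1 CPM against 0.956, 0.892, 2.72 and 1.68 CPM. Reads of Dnah7a, Dnah7b and Dnah7c, which are close copies, can be split among them.

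Of 19 genes of the nexin-dynein regulatory complex, the ruler and the central pair, 18, 18, 17 and 16 passed in gated and 18, 19, 19 and 18 in strongly gated nuclei. Spef2, of the central pair, gave 204, 223, 202 and 143 CPM against 5.36, 5.39, 14.2 and 11.2 CPM. Ak7 gave 167, 184, 160 and 107 CPM against 3.45, 3.39, 7.51 and 7.80 CPM, and this adenylate kinase is also in the ependymal marker list, as is the dynein light chain Dynlrb2. Gas8 was the member of this list nearest to no difference, with a log2 ratio of 0.44, 0.71, 0.29 and −0.23.

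The programme that builds multiciliated cells was more mixed: of 13 genes, 6, 8, 8 and 7 were 2-fold higher and 0, 0, 1 and 1 were 2-fold lower in gated nuclei, and 11, 10, 9 and 8 were 2-fold higher and 1, 1, 2 and 3 2-fold lower in strongly gated nuclei, counting Mcidas, at 0 UMIs there, as lower. Among the RFX factors, Rfx2 gave 53.4, 58.4, 50.3 and 32.0 CPM in gated against 4.78, 4.89, 7.23 and 5.80 CPM in other nuclei. Rfx3 was broadly present, at 842, 841, 1064 and 965 CPM in strongly gated against 227, 222, 194 and 162 CPM in other nuclei. Trp73, the p73 factor needed for multiciliated cells, gave 30.7, 36.6, 21.7 and 19.5 CPM against 1.70, 1.38, 3.19 and 3.14 CPM. Mcidas, which starts the programme in precursors, had 0 UMIs in strongly gated nuclei, and its level in other nuclei, 0.308 to 0.389 CPM, is below what a count of 0 can show here.

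Among classes of other nuclei, named from at least 2 UMIs of class markers, the summed level of the motile cilia genes was 602 to 1015 CPM in 8 of the 9 classes. Choroid plexus-like nuclei stood above, at 2401 (2136 to 2691), 2509 (2290 to 2744), 1675 (1541 to 1818) and 1245 (1115 to 1386) CPM from 40, 63, 102 and 65 nuclei. Spag16 gave 469, 489, 238 and 78.8 CPM in these nuclei, between its level in other classes and that in strongly gated nuclei. Cfap69 gave 202, 187, 143 and 48.8 CPM there and Cfap54 gave 88.9, 135, 58.2 and 67.5 CPM. Dnah12 gave 8.09, 0, 29.1 and 3.75 CPM, from 1, 0, 10 and 1 UMIs. In the remaining classes Spag16 was at 23.2 CPM or lower and Cfap69 at 45.0 CPM or lower. Spag16 stood above them in choroid plexus-like nuclei of every library, while Dnah12 did not in 2 of the 4. Cfap69 also stood above them, but its 48.8 CPM in striatum AAV-VEGF-C, from 65 nuclei, is too near 45.0 CPM to be told apart.

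**Figure D3:**
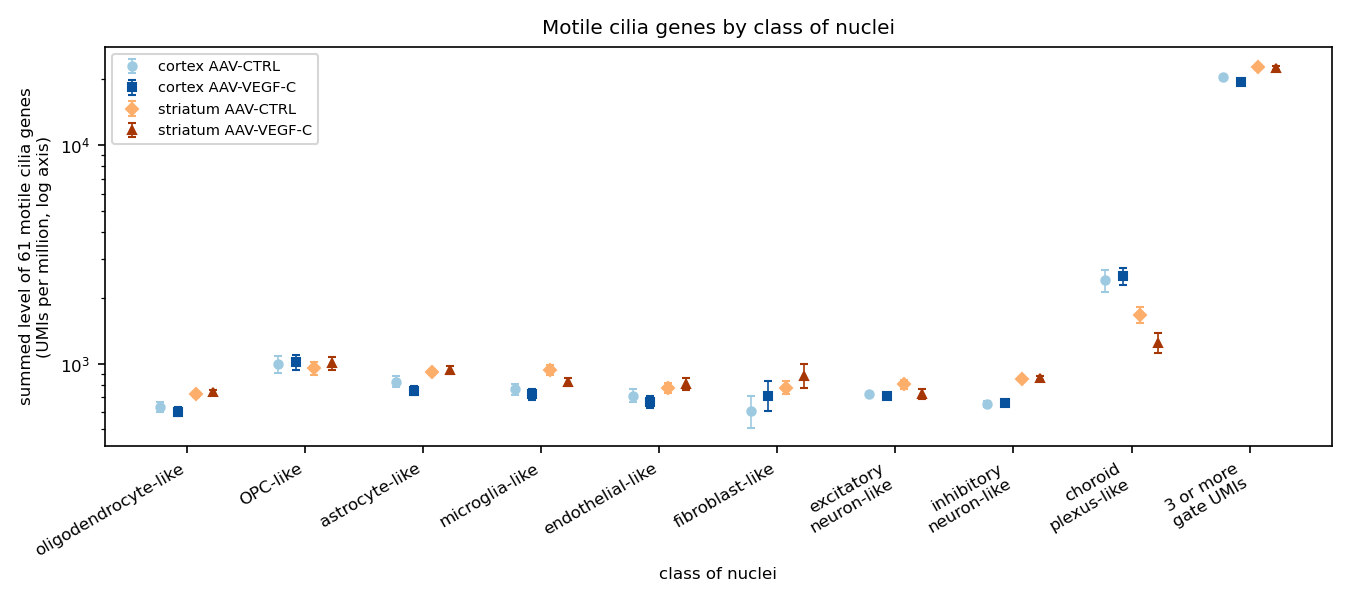
Summed level of the 61 motile cilia genes (CPM, log axis, bars are 95% counting intervals) in 9 classes of nuclei without gate UMIs and in strongly gated nuclei, 1 symbol per library. Strongly gated nuclei lie between 19362 and 22814 CPM, choroid plexus-like nuclei between 1245 and 2509 CPM and the rest between 602 and 1015 CPM.

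Within neurons and glia single members differed by class. Dnah9 gave 30.4, 30.5, 45.3 and 44.2 CPM in excitatory neuron-like nuclei against 6.24, 8.55, 12.7 and 13.4 CPM in oligodendrocyte-like nuclei. Cfap74 gave 64.9, 83.8, 64.8 and 51.6 CPM in microglia-like nuclei against 8.02, 8.20, 13.2 and 16.3 CPM in oligodendrocyte-like nuclei. Spag9 was at 182 to 323 CPM in all 9 classes and all 4 libraries, and a UMI of it was found in 33.3%, 34.6%, 40.5% and 45.2% of oligodendrocyte-like nuclei.

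The virus labels were compared within each region label. In gated nuclei the summed level was 4905 and 5159 CPM under the cortex label, a log2 ratio of AAV-VEGF-C over AAV-CTRL of 0.07 (0.03 to 0.11), and 4580 and 3375 CPM under the striatum label, a log2 ratio of −0.44 (−0.47 to −0.41). In strongly gated nuclei the log2 ratios were −0.08 (−0.12 to −0.03) and −0.02 (−0.05 to 0.02). In other nuclei they were −0.03 (−0.05 to −0.02) and −0.04 (−0.05 to −0.02), and 0 members were 2-fold higher or lower under either region label, where 0.66% and 0.601% of all genes were under cortex and 0.721% and 1.85% under striatum. Under the nasal screen, most of whose UMIs were of Stoml3, the direction in gated nuclei under the cortex label turned, to −0.26. The lower level in the gated nuclei labelled striatum AAV-VEGF-C was thus not seen within strongly gated nuclei, and it went with the smaller share of strongly gated nuclei among the gated, 5.28% against 11.3%.

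Single members followed the same lines. In gated nuclei under the cortex label, 6 of 53 members with enough UMIs had an interval above 0 and 2 an interval below 0, where 5% and 4.82% of all genes did. The higher ones were Dnah11 at 0.20 (0.01 to 0.39), Dnah5 at 0.32 (0.09 to 0.55), Cfap44 at 0.32 (0.12 to 0.53), Dnah10 at 0.34 (0.02 to 0.66), Cfap206 at 0.46 (0.07 to 0.84) and Rsph4a at 0.58 (0.13 to 1.03). The lower ones were Dnah3 at −0.33 (−0.64 to −0.03) and Cfap157 at −1.04 (−1.99 to −0.17). Under the striatum label 0 of 57 members had an interval above 0 and 31 below 0, where 8.47% and 8.95% of all genes did. Dnah12 was at −0.73 (−0.84 to −0.62), Cfap44 at −0.68 (−0.86 to −0.51), Dnah6 at −0.53 (−0.68 to −0.38), Spag16 at −0.47 (−0.59 to −0.36) and Hydin at −0.45 (−0.62 to −0.28). By family, the 31 were 8 Dnah genes (Dnah2, Dnah3, Dnah5, Dnah6, Dnah9, Dnah10, Dnah11 and Dnah12), 17 Cfap genes from Cfap58 at −0.93 to Cfap77 at −0.275 (with Cfap43, Cfap44, Cfap46, Cfap52, Cfap54, Cfap57, Cfap61, Cfap65, Cfap69, Cfap70, Cfap74, Cfap100, Cfap126, Cfap206 and Cfap221 between them), Spag16, Spag17, Rsph4a, Rsph10b, Tekt1 and Hydin.

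Differences of 2-fold were few. Under the cortex label 1 member was 2-fold higher (Spag5, 17 against 11 UMIs) and 1 lower (Cfap157, 15 against 45 UMIs), where 1.09% and 1.65% of all genes were. Under the striatum label 0 were higher and 1 was lower (Tekt5, 11 against 19 UMIs), where 1.39% and 1.23% of all genes were.

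In strongly gated nuclei few members separated the virus labels. Under the cortex label 0 of 51 members had an interval above 0 and 3 below 0, where 4.26% and 3.4% of all genes did: Dnah12 at −0.26 (−0.40 to −0.13), Dnah3 at −0.45 (−0.76 to −0.14) and Cfap157 at −1.35 (−2.82 to −0.08). Under the striatum label 0 of 52 were above and 2 below, where 4.44% and 3.91% of all genes did: Dnah12 at −0.17 (−0.28 to −0.06) and Cfap46 at −0.35 (−0.58 to −0.11). Differences of 2-fold were 0 higher and 1 lower (Cfap157) under cortex, where 2.9% and 2.52% of all genes were, and 0 and 0 under striatum, where 2.32% and 2.42% were. Dnah12 was thus lower in the library labelled AAV-VEGF-C under both region labels, with 712 against 1102 and 1137 against 1454 UMIs. Dnah5 in the same nuclei was at 0.16 (−0.08 to 0.39) and 0.16 (−0.04 to 0.37), and Dnah9 at −0.02 (−0.21 to 0.16) and 0.07 (−0.10 to 0.25).

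**Figure D4:**
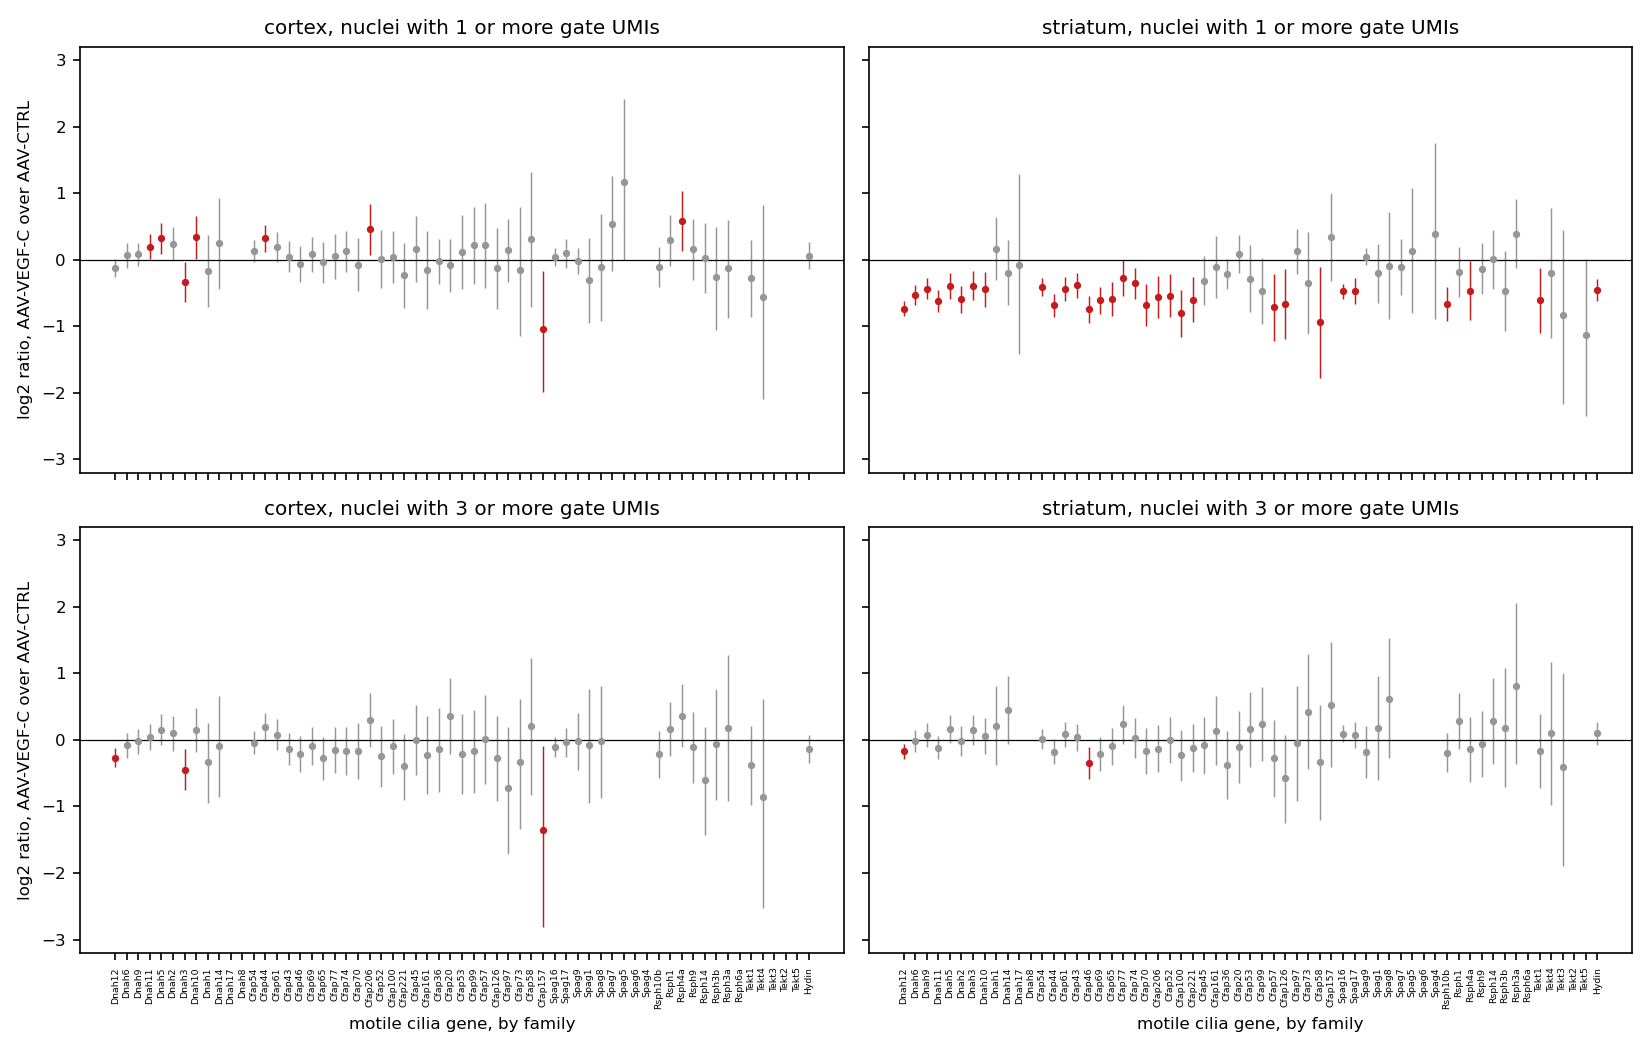
Log2 ratio of AAV-VEGF-C over AAV-CTRL for each motile cilia gene with at least 20 UMIs in both libraries together, in gated and in strongly gated nuclei and under both region labels, genes grouped by family, bars are 95% counting intervals. In gated nuclei labelled striatum 31 of 57 intervals lie below 0, and in strongly gated nuclei 2 of 52 do.

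The share of strongly gated nuclei was lower in the library labelled AAV-VEGF-C under both region labels, with log2 ratios of −0.89 (−1.47 to −0.33) under cortex and −0.67 (−1.18 to −0.18) under striatum, from 44 against 70 and 51 against 106 nuclei. The share of all gated nuclei gave −0.81 (−1.001 to −0.619) under cortex and 0.42 (0.29 to 0.55) under striatum, and the share of oligodendrocyte-like nuclei that met the rule moved in the same directions, from 3.606% to 1.985% and from 3.805% to 5.819%. With 1 library per group, the virus and the dissection cannot be told apart.

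The region labels were compared within each virus label. In strongly gated nuclei the summed level was higher in the libraries labelled striatum, with log2 ratios of 0.16 (0.12 to 0.20) under AAV-CTRL and 0.22 (0.18 to 0.26) under AAV-VEGF-C. In gated nuclei it was lower, at −0.10 (−0.13 to −0.06) and −0.61 (−0.65 to −0.57), beside the smaller share of strongly gated nuclei among the gated, and without nuclei that carry choroid plexus markers the first of these turned to 0.35. There 1 of 55 members was 2-fold higher (Tekt5) and 0 lower under AAV-CTRL, where 5.82% and 4.28% of all genes were. Under AAV-VEGF-C 0 of 54 were higher and 5 lower (Rsph4a, Tekt3, Rsph1, Cfap100 and Cfap58, at −1.41 to −1.01), where 7.8% and 4.67% of all genes were. Dnah12 in strongly gated nuclei was at 0.28 (0.17 to 0.40) and 0.38 (0.24 to 0.51), Dnah3 at 0.33 (0.09 to 0.57) and 0.92 (0.63 to 1.22) and Cfap61 at 0.34 (0.13 to 0.54) and 0.34 (0.12 to 0.56). Rsph4a went the other way under AAV-VEGF-C, at −0.54 (−1.03 to −0.05). Differences of 2-fold numbered 0 of 51 members in each direction under AAV-CTRL, where 4.39% and 4.59% of all genes were higher and lower, and 3 higher and 0 lower of 51 under AAV-VEGF-C, where 4.47% and 4.34% were. The 3 were Dnah14 (72 against 27 UMIs), Cfap157 (24 against 7 UMIs) and Tekt4 (16 against 6 UMIs).

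In other nuclei the summed level was also higher under the striatum label, at 0.23 (0.21 to 0.25) and 0.23 (0.21 to 0.24). Under AAV-CTRL 7 of 61 members were 2-fold higher and 2 lower, where 10.1% and 5.01% of all genes were, and under AAV-VEGF-C 9 were higher and 1 lower, where 9.87% and 5.32% were, shares near those of all genes. Cfap221 was at 1.983 (1.495 to 2.502) and 1.62 (1.21 to 2.04), Cfap46 at 1.64 (1.48 to 1.81) and 1.60 (1.45 to 1.75), Hydin at 1.21 (0.94 to 1.48) and 1.16 (0.91 to 1.42) and Tekt4 at 1.38 (0.54 to 2.30) and 1.28 (0.40 to 2.21). Spag6 was lower, at −1.70 (−2.08 to −1.34) and −1.27 (−1.62 to −0.94), and Dnah14 at −1.01 (−1.31 to −0.73) and −0.97 (−1.27 to −0.67). Cfap46 was higher within a class too, at 8.73, 11.7, 27.7 and 28.1 CPM in inhibitory neuron-like and 6.24, 3.92, 14.3 and 14.8 CPM in oligodendrocyte-like nuclei. Spag6 was lower within excitatory neuron-like nuclei, at 5.82, 6.25, 2.34 and 1.84 CPM. The mix of neurons also differed between the region labels. The cortex label held 3888 and 4820 excitatory neuron-like nuclei and the striatum label 371 and 237. Whether that mix bears on the differences above was not tested.

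**Figure D5:**
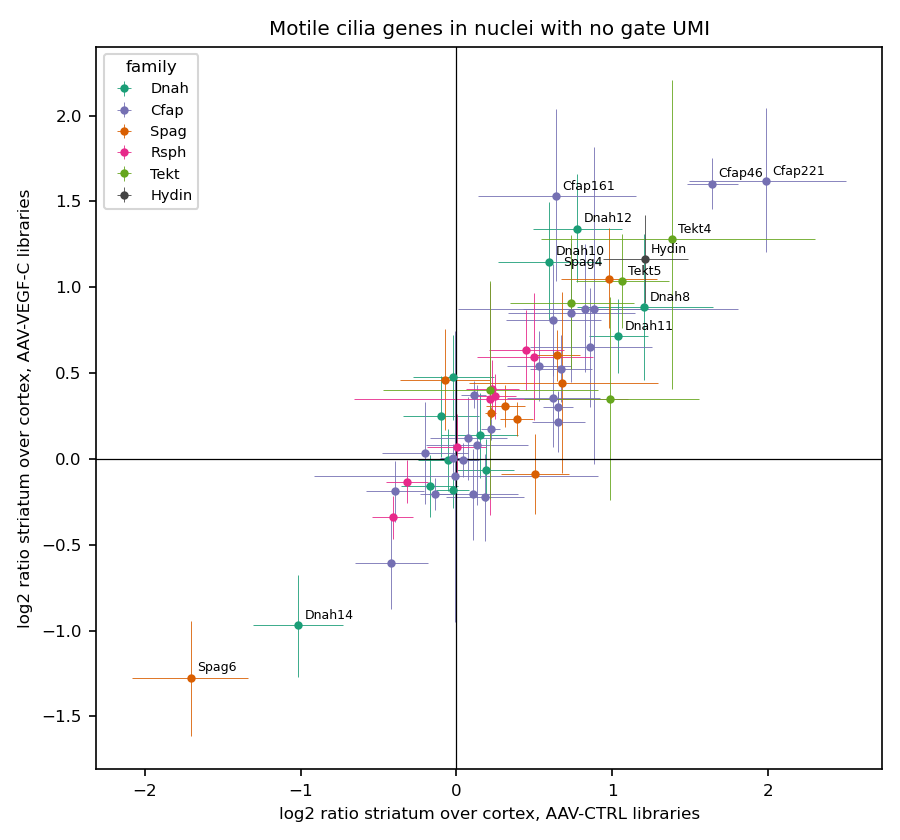
Log2 ratio of the library labelled striatum over the library labelled cortex for each motile cilia gene in nuclei without gate UMIs, AAV-CTRL libraries on the horizontal and AAV-VEGF-C libraries on the vertical axis, colored by family, bars are 95% counting intervals. Cfap221 and Cfap46 lie at the upper right and Spag6 at the lower left in both pairs of libraries.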

How the data were processed

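Nuclei of 4 libraries were profiled by droplet single-nucleus RNA sequencing (10x 3′ v3 chemistry). The deposited values are raw UMI counts per gene and nucleus, which the authors made with Cell Ranger (5.1.1 and mm10 in the submitters' processing notes, 5.0.1 in the file headers). Annotation and the counting of introns are not given in the sources used here. The deposited tables held 17168, 20370, 23724 and 17466 barcodes. Their lowest totals were 804, 817, 719 and 888 UMIs.

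Doublet calls came from Scrublet (scanpy 1.11.5; double precision, exact neighbours, 8% expected) for each library, and 4.69%, 6.25%, 8.29% and 4.56% of barcodes were removed. The cell annotation of the study was not used here. Counts were summed over sets of nuclei within a library and divided by the set's UMIs. Exact Poisson intervals were used for levels, Clopper-Pearson intervals for shares and conditional binomial intervals for ratios (scipy 1.17.1, numpy 2.4.6, Python 3.11.15). The interval code was tested on simulated data. A gene needed 20 UMIs over both sets compared, and a difference of 2-fold was called. No test across samples was run, as each group holds 1 library. Classes needed 2 UMIs of class markers.

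Named genes are the 4 of each family with the most UMIs in gated nuclei, members under 2-fold in all libraries and members whose interval between virus labels excluded 0. Other genes and ranges were added after their values were seen. Gene loci are from GENCODE M21 (mm10) and promoters from RefSeq (GRCm38.p6), with no window for 11 members. The members, marker lists and pathway lists were chosen with earlier results of these data known. Alternatives covered the gate, depth, minimum, scaling, doublets and nuclei with markers of other tissues.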

Additional observations from a re-analysis of the deposited data

Results flagged for a closer look

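Results below were singled out because the ratio of AAV-VEGF-C over AAV-CTRL in gated nuclei pointed up under one region label and down under the other, with counting intervals off 0 in both. The difference between region labels was not tested. The summed level of the motile cilia genes had a log2 ratio of 0.0726 under the cortex label and −0.44 under the striatum label, against −0.08 and −0.02 in strongly gated nuclei. The share of gated nuclei went the opposite way, at −0.81 and 0.42, against −0.89 and −0.67 for strongly gated nuclei.

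Among dynein heavy chains, Dnah11 was at 0.20 and −0.62, Dnah5 at 0.32 and −0.39 and Dnah10 at 0.34 and −0.44 under the cortex and striatum labels. Cfap44, of the inner arm tether, was at 0.32 and −0.68, Cfap206, of the radial spokes, at 0.46 and −0.56 and Rsph4a, of the spoke head, at 0.58 and −0.46. In strongly gated nuclei the intervals of these 6 genes included 0 under both labels. For example, Dnah11 was at 0.05 (−0.15 to 0.24) and −0.12 (−0.29 to 0.06) and Cfap44 at 0.20 (−0.01 to 0.41) and −0.18 (−0.37 to 0.01).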

How the results depend on the processing

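No paired analysis was possible because each group holds 1 library and no result here comes from a test. The region ratios are within 1 pool of mice and are given for each virus label. Library values stand in the order used above, virus ratios as cortex then striatum, region ratios as AAV-CTRL then AAV-VEGF-C, all on the log2 scale. The cause of these moves was not tested. Main results not listed under a setting moved by less than their counting interval or, for counts, stayed within 1.5 times. Values of single named members often moved further: 98 with a gate of 2 UMIs, 97 with 2 gate genes, 94 with 3 UMIs, 86 thinned, 71 as UMIs per nucleus, 76 and 86 under the choroid plexus and nasal screens and 1 with doublets kept, and only those that turned direction are listed. The summed level stayed higher in gated than in other nuclei under every setting, and the number of members past 2-fold stayed between 39 and 51.

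With a gate of 2 UMIs, shares were 0.513%, 0.272%, 0.685% and 0.588%, summed ratios 4.68, 4.67, 4.54 and 4.38, virus ratios −0.0402 and −0.20, region ratios 0.0904 and −0.0672, and the share ratio under striatum −0.22. Members 2-fold higher under cortex and lower under striatum numbered 0 each. The direction turned for Cfap77 (0.0511, virus, striatum) and Tekt5 (0.25, gated over other, striatum AAV-VEGF-C). With a gate of 2 genes, shares were 0.440%, 0.215%, 0.460% and 0.414%, summed ratios 4.72, 4.88, 4.71 and 4.57, virus ratios 0.12 and −0.19, region ratios 0.22 and −0.0857, share ratios −1.04 and −0.15, and both counts 0, with Cfap77 at 0.0833, Dnah5 at 0.00262 and Tekt5 at 0.10. With a gate of 3 UMIs, chosen after seeing the data, shares were 0.428%, 0.230%, 0.487% and 0.306%, summed ratios 4.80, 4.76, 4.73 and 4.75, virus ratios −0.0755 and −0.0172, region ratios 0.16 and 0.22, the share ratio under striatum −0.67, and both counts 0. There the virus ratio under striatum turned for Cfap43 (0.0385), Cfap52 (0.000307), Cfap54 (0.0101), Cfap61 (0.0834), Cfap74 (0.0264), Cfap77 (0.24), Dnah10 (0.0603), Dnah3 (0.15), Dnah5 (0.16), Dnah9 (0.0731), Hydin (0.0989), Spag16 (0.0966) and Spag17 (0.0715).

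As UMIs per nucleus, summed ratios were 3.03, 3.12, 2.65 and 2.29, virus ratios 0.11 and −0.13, the region ratio under AAV-CTRL −0.35 and Cfap77 0.0335. With called doublets kept, they were 2.68, 2.75, 2.29 and 1.93, the virus ratio under striatum −0.40, the region ratio under AAV-CTRL −0.15 and members 2-fold lower 0 under both labels. Centred on the median gene, the first summed ratio was 2.71 and region ratios −0.19 and −0.71. Thinned to 1000 UMIs, shares were 1.68%, 0.935%, 2.13% and 2.26%, the first summed ratios 2.85, 2.96 and 2.77, the virus ratio under striatum −0.78, region ratios 0.15 and −0.68, the share ratio under striatum 0.0845, and 3 members were 2-fold higher under cortex and 13 lower under striatum.

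The choroid plexus and nasal screens left out gated nuclei alone, and other nuclei were unscreened. Without choroid plexus marker nuclei, summed ratios were 1.75, 1.91, 1.87 and 1.42, virus ratios 0.13 and −0.49, region ratios 0.35 and −0.27, and 0 members were lower under cortex. Without nuclei of the nasal screen, of whose UMIs in strongly gated nuclei Stoml3 made up 60.3% to 73.6%, they were 2.10, 1.87, 1.68 and 1.32, virus ratios −0.26 and −0.39, region ratios −0.20 and −0.33, and 3 members were lower under cortex, where Cfap206 (−0.0596), Cfap44 (−0.15), Dnah10 (−0.14) and Dnah11 (−0.48) turned. Without the member with most UMIs, summed ratios were 2.61, 2.73, 2.27 and 1.90. A minimum of 10 UMIs gave 2 higher and 2 lower members under cortex and 1 and 2 under striatum, none gave 4 and 3 and 1 and 2, and 50 gave 0 higher under cortex and 0 lower under striatum.

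Depth limits members listed at 0 in strongly gated nuclei, where a count of 0 in a single library allows up to 5.47 to 7.64 CPM.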
